A study of Homo sapiens with 6 samples.

Results

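The G2 and mitosis genes are 47 human genes that act from the end of DNA replication to the splitting of the cell, chosen by name as a list of cyclins, mitotic kinases, checkpoint, kinetochore, spindle, condensin and cytokinesis genes. All 47 were found by symbol among the 35793 genes of the table, and all 47 reached the mean of 10 normalized counts that was needed for testing. RNA was sequenced from cardiomyocytes that had been differentiated for 15 days from WTC11, an established human induced pluripotent stem cell line. The control group was wild-type WTC11 (3 replicates) and the other group was an STK25 homozygous knockout made with CRISPR/Cas9 in WTC11 (3 replicates), without treatment in either. The knockout is a single line, so the loss of STK25, a kinase of the STRIPAK complex, and any other difference between the lines cannot be told apart. The labels call the replicates biological but do not say whether they were separate differentiations. The p-values therefore measure the spread between these samples, part of which may be technical.

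In dividing cells the G2 and mitosis genes are switched on together late in the cycle and are kept low in resting cells. Cyclin B with CDK1 drives entry into mitosis, the spindle checkpoint delays separation of the chromosomes until each is attached, and the anaphase-promoting complex then destroys cyclin B and securin. Cardiomyocytes divide readily early in development and leave the cell cycle as they mature, and many then copy DNA or divide nuclei without dividing the cell, so these genes are often used to follow heart muscle cell division.

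As a group, the G2 and mitosis genes were lower in the knockout. On a log2 scale (knockout minus wild type, given below with its SE and the limma adjusted p), all 47 had a negative fold change, from -1.31 for CDCA3 to -0.02 for AURKA (46 with equal upper quartiles, where AURKA was at 0.0013). Their median was -0.78, whereas 49.6% of all 15536 genes tested had a negative one and their median was 0.0052. With limma and Benjamini-Hochberg adjustment over all genes tested, 12 of the 47 (25.5%) had an adjusted p under 0.05 and all 12 fell, against 6.79% of all tested genes that were called lower. No member was called higher, against 5.97% of all genes, and none had an unadjusted p under 0.05 in that direction, since all were below 0. In the lower direction 24 of the 47 had one, where 4275 of all 15536 genes tested had one in either direction. edgeR on the recovered reads called the same 12 lower and 0 higher, against 6.52% and 5.56% of all genes, 12.1% in all. DESeq2 called 21 lower and 0 higher, against 8.89% and 8.01%, 16.9% in all. For limma the share of all genes called in either direction was 12.8%. The 12 were CDCA3, CCNB2, BIRC5, CDC20, MKI67, MAD2L1, CENPA, KIF14, CDK1, NUF2, CCNB1 and CENPF, and their knockout means lay between 40.3% and 62.2% of the wild-type means. In 29 of the 47 all 3 knockout libraries lay below all 3 wild-type libraries, which was the case for 17.2% of all genes tested, and the reverse held for 0 members and 16.2% of all genes.

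**Figure D1:**
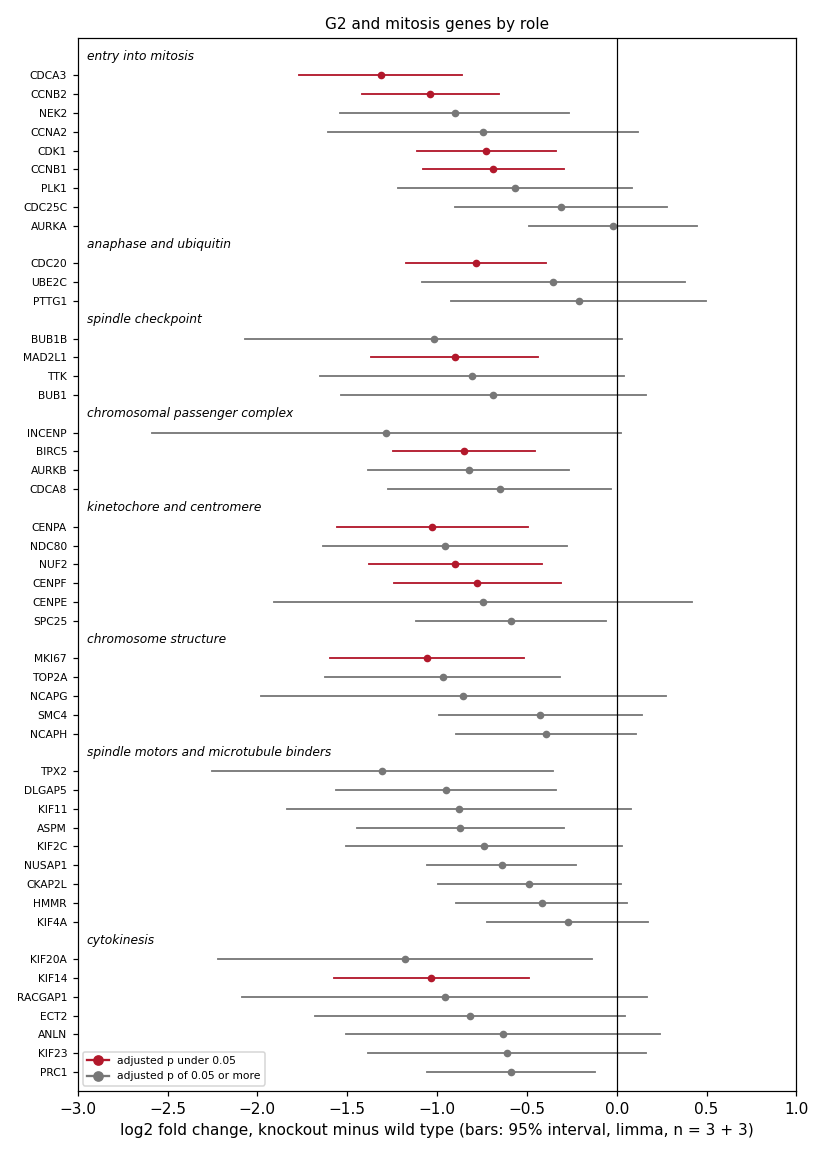
Log2 fold change (knockout minus wild type, horizontal axis) of each G2 and mitosis gene, grouped by role, with the 95% interval of the limma fit as a bar (3 against 3 libraries). All 47 points lie below 0 (46 with equal upper quartiles), and the 12 genes with an adjusted p under 0.05 are in red.

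Summed over the 47 genes, the normalized counts came to 157518, 146158 and 154414 in wild-type replicates 1 to 3 and to 91316, 95800 and 99848 in knockout replicates 1 to 3. The sums of the groups did not overlap, and the knockout mean was 62.6% of the wild-type mean. As a share of all reads, the genes took 0.465%, 0.374% and 0.455% in the wild type and 0.183%, 0.246% and 0.240% in the knockout, in the same order. On that scale the knockout mean was 51.7% of the wild-type mean. Scaling to equal totals moved the median of all genes to -0.28 and that of the 47 genes to -1.06. In these bulk samples, fewer cycling cells and less RNA per cycling cell cannot be told apart.

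A pair of libraries stood apart. Wild-type replicate 2 and knockout replicate 1 deviated from their own group in the same way, with a correlation of their deviations of 0.45 over the tested genes and 0.83 over the 47 genes, which share these libraries and are not independent. They also had the largest shares of mitochondrially encoded reads of their groups, 3.90% against 2.18% and 2.11% in the wild type and 3.33% against 1.25% and 1.62% in the knockout. The depths ran from 22443904 to 53224112 reads. The part of these differences between libraries in the results was not tested. When both libraries were left out, a choice made after the values were seen, 36 of the 47 genes (76.6%) were called lower against 14.9% of all genes tested, and in all 47 genes both knockout values lay below both wild-type values, against 32.4% of all genes. The median log2 fold change of the 47 was -0.73 in that fit. Leaving out wild-type replicate 2 alone gave 43 such members (25.8% of all genes) and knockout replicate 1 alone 33 (23.5%).

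Calls also depended on single libraries. Leaving out wild-type replicate 1, 2 or 3 gave 1, 9 and 3 called members, where 2.53%, 5.10% and 2.96% of all genes were called lower. Leaving out knockout replicate 1, 2 or 3 gave 14, 2 and 2, where 7.71%, 4.77% and 3.81% of all genes were called lower. CDCA3 was called in all 6 of these fits and CCNB2 in 5. The median of the 47 genes lay between -0.85 and -0.61 in them.

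**Figure D2:**
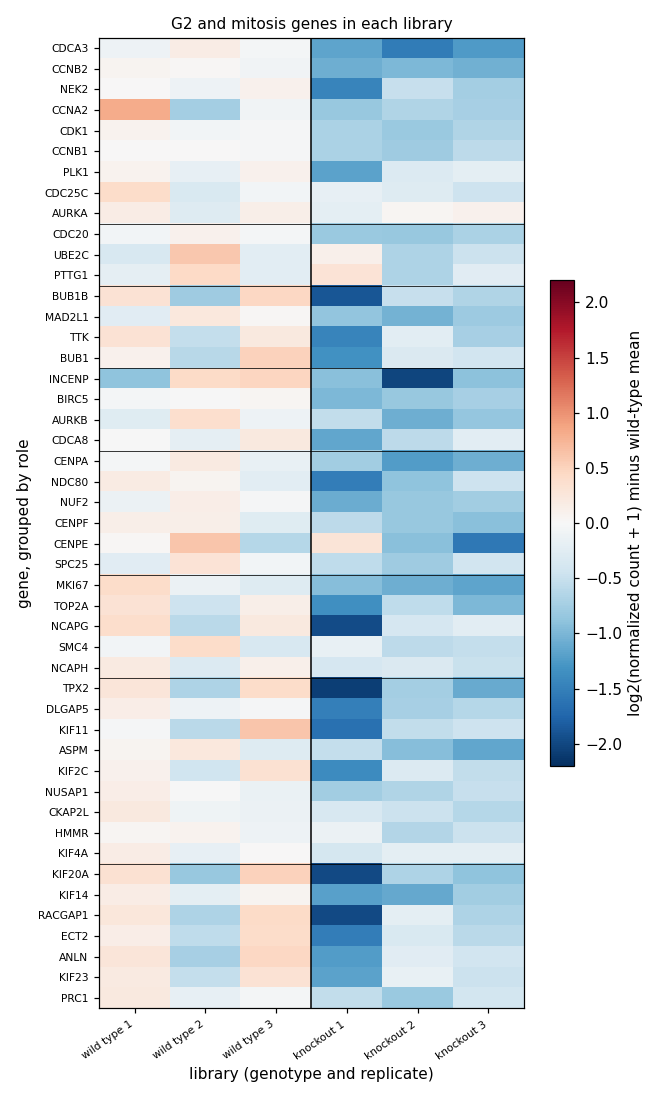
Each row is a G2 and mitosis gene and each column a library. Color gives log2(normalized count + 1) minus the wild-type mean of that gene (blue lower, red higher), and black lines separate the roles and the genotypes. The knockout columns are mostly blue, with column medians of -0.93, -0.68 and -0.63 in replicates 1, 2 and 3, while UBE2C, PTTG1 and CENPE are above the wild-type mean in knockout replicate 1.

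Many promoters of late cell cycle genes carry a CHR (cell cycle genes homology region) element, which is bound by the DREAM repressor in resting cells and by MYB and FOXM1 complexes in dividing cells, often beside CCAAT boxes bound by NF-Y. RefSeq promoters of GRCh38.p14, which run from 250 bases before to 50 bases after the start, were matched for 41 of the 47 genes. They were searched on both strands for the CHR words TTTGAA and TTCGAA and for CCAAT, words that may overlap each other. A CHR word was present in 32 of the 41 (78.0%) and in 16.8% of all 27305 promoters, and CCAAT in 33 of 41 (80.5%) and in 35.6% of all promoters. Both were present in 26 of 41 (63.4%) against 6.63% of all. The shares were alike in 43 promoters of other mitotic genes, a further list described below. Of these, 33 (76.7%) held a CHR word, 29 (67.4%) a CCAAT and 25 (58.1%) both, so the CHR share is not particular to the 47 genes. Among 27 promoters of DNA replication genes 2 (7.41%) held a CHR word and 18 (66.7%) a CCAAT. The CHR share was 10 of 11 promoters for the members called lower and 22 of 30 for the others. From 100 bases before to 50 bases after the start, 29 of the 41 promoters (70.7%) still held a CHR word, against 72.1% for the other mitotic genes and 7.62% of all. A match is a description of the letters and shows no binding.

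The 200 bases before the start are shown 5′ to 3′ for 4 members called lower (CCNB2, CDC20, MKI67 and CENPA) and 2 that were not called (PLK1 and KIF11), picked after their values and motifs were seen because both motifs lie inside the stretch. Capitals mark CHR words (TTTGAA, or TTCAAA for the other strand) and CCAAT boxes (CCAAT, or ATTGG for the other strand).
CCNB2 (chr15:59104946-59105145, plus strand): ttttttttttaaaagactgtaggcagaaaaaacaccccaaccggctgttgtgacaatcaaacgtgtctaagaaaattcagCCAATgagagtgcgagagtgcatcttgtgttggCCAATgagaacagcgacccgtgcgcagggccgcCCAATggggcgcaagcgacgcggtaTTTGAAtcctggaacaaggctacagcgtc
CDC20 (chr1:43358781-43358980, plus strand): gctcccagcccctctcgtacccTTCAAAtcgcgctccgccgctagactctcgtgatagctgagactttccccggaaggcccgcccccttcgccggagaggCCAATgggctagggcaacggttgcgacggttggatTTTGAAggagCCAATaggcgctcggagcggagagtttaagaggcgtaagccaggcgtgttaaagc
MKI67 (chr10:128126424-128126623, minus strand): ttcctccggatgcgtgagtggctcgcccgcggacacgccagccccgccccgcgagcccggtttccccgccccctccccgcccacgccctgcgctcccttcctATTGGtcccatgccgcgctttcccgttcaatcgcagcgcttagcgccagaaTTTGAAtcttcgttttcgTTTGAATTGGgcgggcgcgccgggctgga
CENPA (chr2:26785856-26786055, plus strand): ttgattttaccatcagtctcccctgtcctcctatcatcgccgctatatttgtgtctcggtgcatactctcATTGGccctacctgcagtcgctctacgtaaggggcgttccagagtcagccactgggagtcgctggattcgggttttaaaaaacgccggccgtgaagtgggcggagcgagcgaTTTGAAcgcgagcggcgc
PLK1 (chr16:23678689-23678888, plus strand): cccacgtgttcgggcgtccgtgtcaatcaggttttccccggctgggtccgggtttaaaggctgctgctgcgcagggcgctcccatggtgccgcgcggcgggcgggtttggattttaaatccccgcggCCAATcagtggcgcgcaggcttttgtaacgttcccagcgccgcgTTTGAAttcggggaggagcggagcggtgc
KIF11 (chr10:92592930-92593129, plus strand): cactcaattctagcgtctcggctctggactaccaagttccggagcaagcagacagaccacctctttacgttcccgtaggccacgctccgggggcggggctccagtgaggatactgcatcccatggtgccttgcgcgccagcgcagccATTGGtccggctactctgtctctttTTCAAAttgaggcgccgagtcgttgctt
CCNB2 has 3 CCAAT boxes in the stretch and a CHR word that begins 29 bases before the start, the same distance as in PLK1. In MKI67 the second CHR word and a CCAAT box on the other strand share a base. Since the 6 promoters were picked for holding both motifs, their likeness shows nothing about the other members: both motifs were in 9 of 11 promoters of called members and in 17 of 30 of the others.

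Entry into mitosis is driven by cyclins A and B, their partner CDK1 and the kinases and phosphatases that switch CDK1 on. Of the 9 genes in this group 4 fell (CDCA3, CCNB2, CDK1 and CCNB1), where 6.79% of all genes tested were called lower, the share against which the counts of the other roles also stand. The group's median log2 fold change was -0.72. CCNB2, cyclin B2, had 5019, 4918 and 4560 normalized counts in the wild type and 2287, 2436 and 2334 in the knockout. The replicates were close and the genotypes far apart, -1.04 ± 0.16 SE on the log2 scale (adjusted p 0.00690). With 1 library left out its adjusted p ran from 0.0104 to 0.0526, the highest without wild-type replicate 1. CCNB1, cyclin B1, had 11714, 11750 and 11381 normalized counts in the wild type and 7167, 6726 and 7782 in the knockout. Its wild-type mean of 11615 ± 203 compared with 7225 ± 530 (SD, n = 3 each; log2 -0.69 ± 0.17 SE, adjusted p 0.0362). CDK1, the kinase of both B cyclins, had 5033, 4568 and 4672 normalized counts in the wild type and 2935, 2696 and 3006 in the knockout, without overlap (log2 -0.72 ± 0.17 SE, adjusted p 0.0284). CCNB1 was past the threshold only without knockout replicate 1 among the fits that left out 1 library (adjusted p 0.0412 to 0.158), and CDK1 only without that library or without wild-type replicate 2 (0.0328 to 0.145).

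CDCA3, a protein that helps to remove the CDK1 inhibitor WEE1 and so triggers mitotic entry, had the largest fall of the 47. The gene lies on the minus strand at chr12:6844793-6852066 (GRCh38, GENCODE 29). Its values were 2735, 3309 and 2853 normalized counts in the wild type and 1330, 1015 and 1245 in the knockout. The lowest wild-type value was above every knockout value, and the knockout mean was 40.3% of the wild-type mean (log2 -1.31 ± 0.20 SE, adjusted p 0.00531, 0.00566 to 0.0306 with 1 library left out).

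The other 5 genes of this group did not pass. CCNA2, cyclin A2, which acts from S phase to early mitosis, had 2488, 840 and 1339 normalized counts in the wild type and 793, 889 and 844 in the knockout. Wild-type replicate 2 lay within the knockout range and the other wild-type libraries above it, and the change was -0.74 ± 0.37 SE on the log2 scale (adjusted p 0.245). PLK1, the polo kinase that activates CDC25C and matures centrosomes, had 4719, 3946 and 4742 normalized counts in the wild type and 1959, 3623 and 3834 in the knockout. The groups did not overlap, but knockout replicate 1 lay far below the other two (log2 -0.57 ± 0.28 SE, adjusted p 0.243). AURKA, the centrosomal Aurora kinase, had 4965, 3659 and 4835 normalized counts in the wild type and 3826, 4594 and 4764 in the knockout. The knockout values lay within the wild-type range, and the 95% interval of its log2 fold change of -0.02 ran from -0.49 to 0.44 (adjusted p 0.962). Its sign turned when wild-type replicate 1 or 3 or knockout replicate 1 was left out (0.057, 0.038 and 0.074). CDC25C (-0.31, adjusted p 0.489) is the phosphatase that activates CDK1, and NEK2 (-0.90, adjusted p 0.0735) is a kinase that separates centrosomes.

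Anaphase needs CDC20, the activator of the anaphase-promoting complex, UBE2C, its ubiquitin-conjugating enzyme, and PTTG1 (securin), which holds back the protease that cuts cohesin. CDC20 fell, with 5802, 6497 and 5874 normalized counts in the wild type and 3435, 3380 and 3750 in the knockout (log2 -0.78 ± 0.17 SE, adjusted p 0.0219). With 1 library left out its adjusted p ran from 0.0298 to 0.0965 and was under 0.05 only without wild-type replicate 2 or knockout replicate 1. UBE2C and PTTG1 did not pass. PTTG1 had 10600, 16550 and 10367 normalized counts in the wild type and 15013, 7600 and 10274 in the knockout, so that wild-type replicate 2 and knockout replicate 1 were the high ones and the genotypes overlapped. Its log2 fold change was -0.21 with a 95% interval of -0.92 to 0.50 (adjusted p 0.720), and its sign turned when wild-type replicate 2 or knockout replicate 2 was left out (0.0084 and 0.025). UBE2C was likewise highest in wild-type replicate 2 and, within the knockout, in replicate 1, with 4932, 9499 and 5335 normalized counts in the wild type and 6771, 3922 and 4521 in the knockout (log2 fold change -0.35, adjusted p 0.532). Per kilobase of the longest GENCODE 29 transcript, PTTG1 and UBE2C were also the 2 most abundant of the 47 genes in both genotypes, at 11688 ± 3275 and 7209 ± 2766 normalized counts per kilobase in the wild type (SD, n = 3 each), values that overlap within that spread. CCNB1 followed at 5355 ± 93.8.

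The spindle checkpoint kinases BUB1 and TTK, the kinase-like BUB1B and MAD2L1 hold the anaphase-promoting complex inactive. MAD2L1, which binds CDC20 directly, was the member of this group that fell. Its values were 2387, 3332 and 2900 normalized counts in the wild type and 1563, 1381 and 1633 in the knockout, without overlap (log2 -0.90 ± 0.20 SE, adjusted p 0.0246, 0.0322 to 0.0959 with 1 library left out and under 0.05 only without knockout replicate 1). BUB1B, TTK and BUB1 had changes of -1.02, -0.81 and -0.69 (log2) with standard errors of 0.45, 0.37 and 0.37 and adjusted p-values of 0.194, 0.203 and 0.275. In all 3 genes wild-type replicate 2 was the lowest wild-type library and knockout replicate 1 the lowest of all.

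The chromosomal passenger complex, made of the kinase AURKB with INCENP, BIRC5 (survivin) and CDCA8 (borealin), corrects faulty attachments and later marks the site of cleavage. All knockout values lay below all wild-type values in each of the 4 genes, against 17.2% of all genes tested, and BIRC5 passed the test. BIRC5 had 8646, 8828 and 9098 normalized counts in the wild type and 4464, 4965 and 5333 in the knockout, 55.6% of the wild-type mean (log2 -0.85 ± 0.17 SE, adjusted p 0.0170, 0.0241 to 0.0860 with 1 library left out and under 0.05 only without wild-type replicate 2 or knockout replicate 1). AURKB had 2243, 3475 and 2494 normalized counts in the wild type and 1841, 1269 and 1498 in the knockout, without overlap but with a wide spread in the wild type (log2 -0.82 ± 0.24 SE, adjusted p 0.0640). CDCA8 had a log2 fold change of -0.65 (adjusted p 0.163). INCENP was by far the scarcest of the 47, with 77.1 ± 34.1 and 30.3 ± 11.8 normalized counts (SD, n = 3 each) and as few as 15 reads in a library, and its log2 fold change of -1.28 had a 95% interval of -2.59 to 0.023 (adjusted p 0.189).

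Kinetochore and centromere genes build the site where microtubules grip the chromosome, and 3 of 6 fell, with a group median of -0.84. CENPA, the histone variant that marks centromeres, had 909, 1085 and 845 normalized counts in the wild type and 553, 400 and 444 in the knockout (log2 -1.03 ± 0.23 SE, adjusted p 0.0253). NUF2, a subunit of the microtubule-binding NDC80 complex, had 956, 1160 and 1028 normalized counts in the wild type and 489, 585 and 613 in the knockout (log2 -0.90 ± 0.21 SE, adjusted p 0.0291). CENPF, a large outer kinetochore protein, had 3769, 3792 and 2889 normalized counts in the wild type and 2315, 1938 and 1828 in the knockout (log2 -0.78 ± 0.20 SE, adjusted p 0.0429). In none of these 3 did the genotypes overlap, where 17.2% of all genes tested had all knockout libraries below all wild-type libraries. Since the test that picked these 3 genes favors separated groups, this is no separate result. With 1 library left out, each was past the threshold only without knockout replicate 1, and their adjusted p-values reached 0.101, 0.101 and 0.182. NDC80 and SPC25, partners of NUF2 in the same complex, were at -0.96 and -0.59 on the log2 scale (adjusted p 0.0741 and 0.142) with no overlap between genotypes. CENPE, a kinetochore motor, was high in wild-type replicate 2 and knockout replicate 1, and the change was -0.74 ± 0.50 SE on the log2 scale (adjusted p 0.394).

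Of 5 chromosome structure genes MKI67 fell. MKI67 encodes Ki-67, the coat protein of mitotic chromosomes and the usual marker of cycling cells. It had 2838, 1954 and 1752 normalized counts in the wild type and 1119, 1019 and 949 in the knockout (47.2% of the wild-type mean, log2 -1.06 ± 0.23 SE, adjusted p 0.0243). The genotypes did not overlap. Its adjusted p ran from 0.0286 to 0.103 with 1 library left out and was over 0.05 without wild-type replicate 1, knockout replicate 2 or knockout replicate 3. TOP2A, the topoisomerase that untangles sister chromosomes, had 5990, 3523 and 5274 normalized counts in the wild type and 1886, 3247 and 2428 in the knockout. The lowest wild-type and highest knockout values nearly touched (log2 -0.97 ± 0.28 SE, adjusted p 0.0633). The condensin genes NCAPG, SMC4 and NCAPH, whose products compact chromosomes, were at -0.86, -0.43 and -0.39 on the log2 scale (adjusted p 0.308, 0.310 and 0.291).

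Spindle motors and microtubule binders were the largest group, with entry into mitosis, and none of its 9 genes passed in limma. Of the 9, 4 had an unadjusted p under 0.05, as did 4275 of all 15536 genes tested. edgeR called 0 of them and DESeq2 called 4 (TPX2, DLGAP5, NUSAP1 and ASPM). In 7 of the 9 all knockout libraries lay below all wild-type libraries, against 17.2% of all genes tested. TPX2, which activates AURKA and starts microtubules near chromosomes, had 6548, 3367 and 7200 normalized counts in the wild type and 1295, 3243 and 2507 in the knockout. Its log2 fold change of -1.30 was close to that of CDCA3, with a larger SE of 0.41 (adjusted p 0.0790), and wild-type replicate 2 lay near the highest knockout library. DLGAP5, NUSAP1 and ASPM, which bind spindle microtubules, had log2 fold changes of -0.95, -0.64 and -0.87, and adjusted p-values of 0.0550, 0.0559 and 0.0591. KIF11, the motor that pushes spindle poles apart, KIF2C, which removes tubulin from microtubule ends, and KIF4A, a chromosome-bound motor, were at -0.88, -0.74 and -0.27 (log2) (adjusted p 0.219, 0.198 and 0.417). HMMR and CKAP2L, also spindle proteins, had -0.42 and -0.49 (adjusted p 0.239 and 0.200). KIF4B, a near-identical copy of KIF4A, was listed at 0 to 6.36 normalized counts; whether reads were exchanged between them was not tested.

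Cytokinesis genes build the central spindle and the contractile ring, and KIF14 was the one of 7 that fell. KIF14, a motor that recruits the kinase CIT to the midbody, had 865, 670 and 808 normalized counts in the wild type and 339, 353 and 455 in the knockout, without overlap (log2 -1.03 ± 0.23 SE, adjusted p 0.0268, 0.0379 to 0.132 with 1 library left out and under 0.05 only without wild-type replicate 2 or knockout replicate 1). The other 6 had log2 fold changes from -1.18 (KIF20A) to -0.59 (PRC1) and adjusted p-values from 0.101 to 0.333. They were KIF20A and KIF23, motors of the central spindle, PRC1, which bundles its microtubules, RACGAP1 and ECT2, which switch on RhoA at the cleavage site, and ANLN, which scaffolds the ring. KIF20A, for example, had 4756, 2104 and 5337 normalized counts in the wild type and 956, 2350 and 2039 in the knockout, where wild-type replicate 2 was within the knockout range.

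The spread between replicates differed between genes that passed and the others. Since the test divides by this spread, a smaller one in called genes is partly built in and is no separate result. Called genes had a median change of -0.90 (log2) and a median coefficient of variation of 10.04% in the wild type and 8.69% in the knockout. The 35 not called had a median of -0.74 and coefficients of 26.1% and 31.0%. By library, 23 genes were low in both wild-type replicate 2 and knockout replicate 1 compared with the rest of their group, 13 were high in both and 11 were low in just 1 of them. Knockout replicate 1 was the lowest of the 6 libraries in 25 of 47 genes. Of the 18 genes whose genotypes overlapped, 14 no longer did without wild-type replicate 2. As a description across genes, which share these libraries, the Pearson r of log2 transcript length with the deviation was -0.21 for wild-type replicate 2 and -0.039 for knockout replicate 1 over the 47 genes (Spearman rho -0.27 and -0.12). Over the 15132 tested genes with a known length it was -0.32 and -0.19 (Spearman rho -0.39 and -0.23). The 23 members longer than 3102 bases had median deviations of -0.67 and -0.57 in these libraries and the other 24 members 0.012 and -0.056. With a length and GC trend subtracted from each library, a choice made after the values were seen, 21 members were called, against 8.46% of all genes called lower, and the median of the 47 was -0.73.

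**Figure D3:**
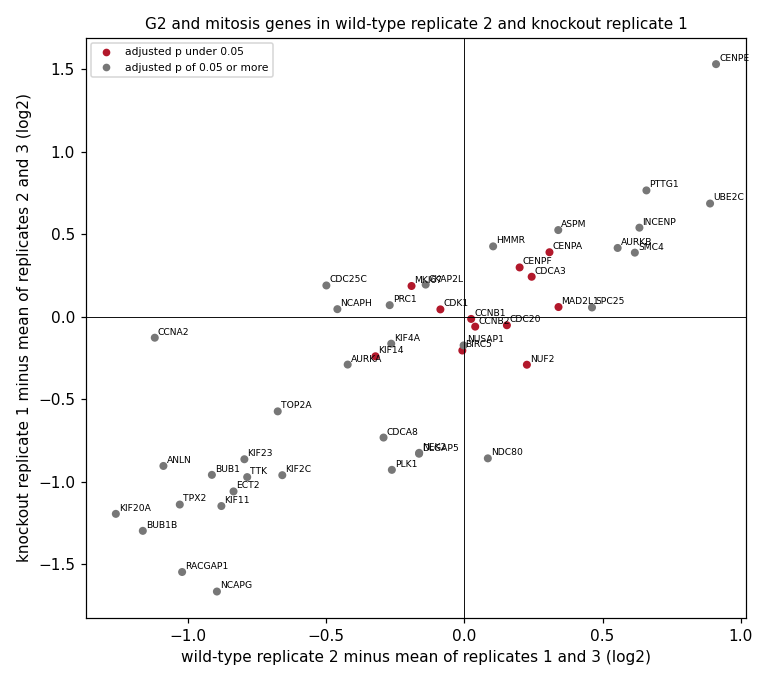
For each G2 and mitosis gene, the horizontal axis gives the log2 value in wild-type replicate 2 minus the mean of replicates 1 and 3, and the vertical axis the log2 value in knockout replicate 1 minus the mean of replicates 2 and 3. Genes such as KIF20A, BUB1B and NCAPG are low in both libraries and CENPE, PTTG1 and UBE2C high in both, while the 12 genes with an adjusted p under 0.05 (red) lie closer to 0 than these on both axes. The spread between replicates enters the test that picked the red genes.

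Other cell cycle genes were compared from further lists. Of 51 other mitotic genes 47 had a negative log2 fold change, the median was -0.53, and 5 fell (9.80% against 6.79% of all genes) while 0 rose. They were PIMREG, CIT, ZWINT, GTSE1 and TROAP. PIMREG, a mitotic regulator, had 1633, 1545 and 1588 normalized counts in the wild type and 589, 537 and 590 in the knockout, an even and separate pair of groups (log2 -1.47 ± 0.18 SE, adjusted p 0.00256, at most 0.0229 with 1 library left out). CIT, citron kinase, which stabilizes the midbody together with KIF14, had 230, 194 and 375 normalized counts in the wild type and 66.1, 83.6 and 25.8 in the knockout (log2 -2.27 ± 0.51 SE, adjusted p 0.0257, up to 0.106 with 1 library left out). ZWINT, GTSE1 and TROAP were at -0.70, -0.75 and -0.79 on the log2 scale (adjusted p 0.0340, 0.0443 and 0.0487, up to 0.161, 0.147 and 0.176 with 1 library left out). Of 30 DNA replication genes 28 had a negative value, the median was -0.58, and 10 had an unadjusted p under 0.05. At the threshold 4 fell (13.3% against 6.79% of all genes) and 0 rose, and TYMS, PCNA and GINS2 were among those that fell. PCNA and GINS2 reached adjusted p-values of 0.0962 and 0.102 with 1 library left out. TYMS, which makes thymidylate, had a log2 fold change of -1.35 (SE 0.17, adjusted p 0.00290).

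The 15 genes for subunits of the anaphase-promoting complex and its activator FZR1, which also act outside mitosis, had a median of 0.0016, with 0 lower and 1 higher at the threshold in limma, a share of 6.67% higher that is near the 5.97% of all genes (3 had an unadjusted p under 0.05, and edgeR and DESeq2 each called 1). That gene, ANAPC4, had 1858, 1146 and 1840 normalized counts in the wild type and 2654, 4265 and 4413 in the knockout (log2 1.22 ± 0.29 SE, adjusted p 0.0307, up to 0.120 with 1 library left out). Of 9 G1 cyclins and kinases 1 fell (11.1% against 6.79% of all genes). CCND2, cyclin D2, had 8676, 6196 and 11723 normalized counts in the wild type and 2780, 3972 and 3215 in the knockout (log2 -1.38 ± 0.27 SE, adjusted p 0.0158, up to 0.0744 with 1 library left out). Neither of these genes overlapped between the genotypes.

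**Figure D4:**
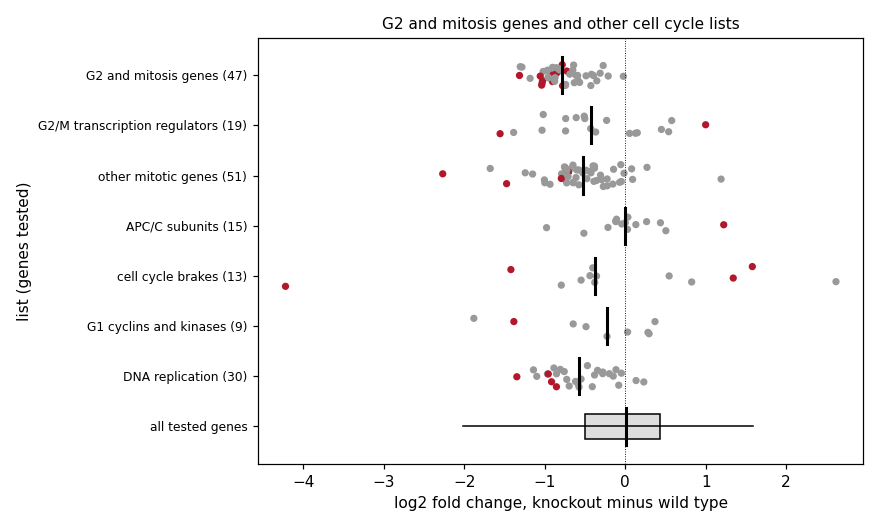
Log2 fold changes (knockout minus wild type, horizontal axis) of each gene in the G2 and mitosis list and in 6 other cell cycle lists (points, red where the adjusted p is under 0.05) with the list median as a black bar. The lowest row gives all tested genes, with the box from the 25th to the 75th percentile (-0.50 to 0.44) and the line from the 5th to the 95th (-2.02 to 1.59). The medians run from -0.78 for the G2 and mitosis genes to 0.0016 for subunits of the anaphase-promoting complex.

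Of 19 regulators of late cell cycle transcription, with a median of -0.43, TFDP1 fell and TFDP2 rose, 5.26% each, below the 6.79% and 5.97% of all genes. Both encode dimer partners of E2F factors. TFDP1 had 4747, 3134 and 5254 normalized counts in the wild type and 962, 1884 and 1702 in the knockout (log2 -1.55 ± 0.32 SE, adjusted p 0.0183, up to 0.0846 with 1 library left out). TFDP2 had 1732, 1928 and 1532 normalized counts in the wild type and 4206, 2766 and 3516 in the knockout (log2 1.00 ± 0.22 SE, adjusted p 0.0227, up to 0.0974 with 1 library left out). The activators FOXM1 and MYBL2 were at -0.74 and -0.61 (log2, SE 0.38 and 0.37, adjusted p 0.258 and 0.346), and LIN9, a core subunit of the MuvB complex that sits on CHR elements, had -1.39 (SE 0.38, adjusted p 0.0536). The genotypes did not overlap for TFDP1, TFDP2 or LIN9, and they overlapped for FOXM1 and MYBL2. FOXM1, MYBL2 and LIN9 were named after their values were seen, and the list as a whole went both ways. Of the 19 regulators 12 had a negative and 7 a positive log2 fold change. LIN52 and LIN37 were at 0.54 and 0.45 (adjusted p 0.117 and 0.256), LIN52 without overlap, and LIN54 was at -0.50 (adjusted p 0.508).

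Among cell cycle brakes, CDKN1A, which encodes the CDK inhibitor p21 and is a main target of p53, was far lower in the knockout. It had 21874, 21721 and 24553 normalized counts in the wild type and 985, 1403 and 1302 in the knockout, 5.42% of the wild-type mean (log2 -4.22 ± 0.20 SE, adjusted p 6.44e-05). No knockout library came near the wild-type range, and with 1 library left out the change stayed between -4.32 and -4.07. The inhibitor of CDK4 and CDK6 encoded by CDKN2D rose, from 363 ± 107 normalized counts in the wild type to 908 ± 159 in the knockout (SD, n = 3 each, adjusted p 0.0196, up to 0.0918 with 1 library left out), and GADD45B, a stress gene that can arrest cells before mitosis, rose from 894 ± 170 to 2661 ± 375 (SD, n = 3 each, adjusted p 0.00395). CCNG2, an atypical cyclin of resting cells, fell from 289 ± 79.6 to 109 ± 35.1 (SD, n = 3 each, adjusted p 0.0470, 0.0562 to 0.189 with 1 library left out). WEE1 and PKMYT1, the kinases that hold CDK1 inactive, were at -0.79 and -0.55 on the log2 scale (adjusted p 0.0921 and 0.116) and were named after their values were seen. Of the 13 brakes tested 2 fell and 2 rose (15.4% each, against 6.79% and 5.97% of all genes).

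Of the 33 genes called in the other cell cycle and marker lists, 18, 9 and 17 were no longer past the threshold without wild-type replicates 1, 2 and 3, and 3, 13 and 19 without knockout replicates 1, 2 and 3. Among the 17 of the cell cycle lists, 4 (CDKN1A, GADD45B, PIMREG and TYMS) were called in each of these fits.

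The targeted gene and the cell types were checked beside these results. STK25 itself fell to 45.8% of its wild-type mean (log2 -1.12 ± 0.19 SE, adjusted p 0.00903, 0.0611 when wild-type replicate 1 was left out), with non-overlapping values of 8874, 6774 and 8710 against 3906, 3434 and 3820 normalized counts (exact two-sided permutation test, p = 0.1, the smallest that 3 against 3 allows). All 11 cardiomyocyte markers were present in every library, with a summed level of 1312145 to 1631667 normalized counts in the wild type and 1850186 to 3364494 in the knockout. MYL7 alone gave 441630 to 739950 and 860614 to 2324410 of these, the most of any marker in every library. Of these markers NKX2-5 and PLN fell (PLN had an adjusted p up to 0.173 with 1 library left out). In 5 others (TNNI3, MYH7, MYL7, ACTN2 and TTN) all knockout libraries lay above all wild-type libraries, against 16.2% of all genes tested. Their log2 fold changes were 0.66 to 1.42 and their adjusted p-values 0.0639 to 0.124, while MYH6 lay lower without overlap (-1.14, adjusted p 0.0531). For limma calls in this and the other marker lists, the shares of all genes tested were 6.79% lower and 5.97% higher. DESeq2 called TNNI3, MYH7, MYL7 and ACTN2 higher and MYH6 lower, and edgeR called MYH6 lower. Smooth muscle markers summed to 88074 to 96833 in the wild type and 495548 to 544018 in the knockout, and 4 of 5 rose (MYH11, ACTA2, TAGLN and CNN1, the last with an adjusted p up to 0.107 with 1 library left out). Fibroblast and stromal markers overlapped in sum (12978 to 26534 against 8307 to 16737), with TCF21, COL3A1 and DCN higher and COL1A2 lower among 9 (COL3A1 and DCN up to 0.0719 and 0.112 with 1 library left out). Epicardial markers summed to 237 to 326 and 568 to 852, with ALDH1A2 higher among 5 tested (up to 0.0660). Pluripotent markers summed to 960 to 1043 and 3098 to 4469, with TDGF1 higher among 5 tested. Most of the knockout sum came from TDGF1, which had 487 to 630 and 2612 to 3970 normalized counts. POU5F1 lay higher and ZFP42 lower without overlap (limma adjusted p 0.158 and 0.0884), and DESeq2 called ZFP42 lower.

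Endothelial markers summed to 139 to 466 and 367 to 545, with CDH5, VWF and TIE1 at 0 to 7.55 and none of the 3 tested called in limma, edgeR or DESeq2 (0 had an unadjusted p under 0.05). Endoderm markers summed to 1659 to 3003 in the wild type and 1191 to 1248 in the knockout, with FOXA2 at 0 and AFP lower among 3 tested. Most of that sum came from APOA1, with 1482 to 2873 and 1164 to 1226 normalized counts, which was not called (limma adjusted p 0.136). The sums of neural markers were 4536 to 7863 and 7076 to 16869, almost all from NES, with SOX2, TUBB3 and PAX6 higher among 4 tested (PAX6 at 0.0512 to 0.127 with 1 library left out). The part of these cell type markers in the lower G2 and mitosis genes was not tested.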

How the data were processed

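The authors deposited 1 table of normalized counts per gene symbol, a signal in which each library has its own step. All values (100%) were whole multiples of that step within a relative tolerance of 1e-06, so reads were recovered from them. The submitters' processing notes name bcl2fastq 2.19, kallisto 0.44.0, DESeq2 1.28.1 and GRCh38, with no roles given, so recovered reads may be rounded estimates, and reads of near-identical genes may be split between them. 0 columns were left unused.

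limma 3.58.1 in R 4.3.3 was fitted on log2(value + 1), with a trend, keeping genes whose mean reached 10. The Benjamini-Hochberg adjustment covered all 15536 genes tested. The added 1 shrinks changes of low genes, but a single library near 0 can enlarge one. TEK, for example, was at 1.56 in limma and 0.37 in edgeR (log2), with 0.76 normalized counts in wild-type replicate 2. Alternatives were edgeR 4.0.16 and DESeq2 1.42.0 on recovered reads, other pseudocounts, filters, scalings and fits, and leaving out each library. Leaving out 2 libraries together and a length and GC correction were added after the values were seen. Fits were tried on simulated data with a fixed dispersion and no deviation shared by the genes of a library. That cannot show how they perform with deviations such as those of the pair of libraries that stood apart. Positions and lengths came from GENCODE 29, promoters from RefSeq.

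The 47 genes, the lists and the tests were chosen with earlier results of these data known. All 6 values were to be given for members with an adjusted p under 0.05, CCNA2, PLK1, AURKA, AURKB, TOP2A and the 2 largest and 2 smallest changes. From other lists, called genes were named, up to 5 each (3 for markers). Further genes were named after their values were seen, and 1 called gene is not reported here.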

Additional observations from a re-analysis of the deposited data

How the results depend on the processing

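The median of the 47 genes stayed below 0 in every alternative run, at -1.06 with equal totals and between -0.85 and -0.61 with 1 library left out. AURKA turned positive with equal upper quartiles (0.0013) and with the length and GC correction (0.066), and leaving out 1 library put it between -0.16 and 0.074 (0.057 and 0.038 for wild-type replicates 1 and 3, 0.074 for knockout replicate 1). PTTG1 ranged from -0.47 to 0.025 in those fits (0.0084 for wild-type replicate 2, 0.025 for knockout replicate 2). Members called, 12 as reported, numbered 6 without a trend, 21 with DESeq2, 21 with the length and GC correction, 36 without the pair of libraries that stand apart and 1 to 14 with 1 library left out. Genes called in all, 1982 as reported, numbered 3079, 3037 and 4706 with DESeq2, the correction and that pair left out, and 792 to 2192 with 1 left out. In the other cell cycle lists, 17 as reported, the counts were 9 without a trend, 28 with DESeq2, 27 with the correction, 58 without that pair and 4 to 17 with 1 left out. Marker genes called, 16 as reported, numbered 27 with DESeq2, 29 without that pair and 10 to 18 with 1 left out. STK25 lay between -1.24 and -1.05 with 1 library left out, the latter (adjusted p 0.0611) when that was wild-type replicate 1. Fits with fewer libraries have fewer samples; otherwise the cause was not tested. INCENP, at 15 reads in a library, is the member that depth limits most.

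The replicate numbers are not said to pair the samples. Deviations of same-numbered libraries had correlations of -0.23, -0.40 and 0.17 over the tested genes, and not every library correlated best with its own number. These values cannot decide whether the samples were paired, since deviations within a group cancel and the pair of libraries that stood apart shapes them. With the replicate number as a block, limma called 0 members (20 had an unadjusted p under 0.05, and edgeR and DESeq2 without the block called 12 and 21), 798 of all genes and 4 in the other cell cycle lists. STK25 was at -1.12 in that fit, with an adjusted p of 0.0684.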
